A study of Mus musculus with 25 samples.

Results

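Arntl, Cry1 and Per3 are 3 genes of the circadian clock that were measured in regenerating mouse liver. They were taken by their names in the study's S1 Table of changed transcripts, and each had 1 mRNA probe there (Arntl IVGNm05598, Cry1 IVGNm24016, Per3 IVGNm31978). They are 3 of the 1170 named mRNA genes in the rows of that table at hand, on an array of which 35979 probes were measured. The study picked the probes of that table because they changed on the very arrays analysed here, and the tests below are therefore not independent of that choice.

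The study asked which transcripts change while the liver grows back after partial hepatectomy (PHx), the surgical removal of part of the liver. All livers came from male Balb/c mice, given as 8 weeks old. In 4 groups the mice had 2/3 PHx and their livers were taken 4, 12, 36 or 72 hours later, and in the control group they had sham surgery and livers labelled as taken at 4 hours. Each group had 5 arrays, 25 in all, and total RNA of whole liver was labelled with Cy3 on a single-colour array. The comparison at 4 hours is therefore the one with equal hours since surgery. At 12, 36 and 72 hours, the effect of PHx and that of the hours since surgery cannot be told apart, and no source used here gives the hour of day of surgery.

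The clock of mammalian cells is a feedback loop of transcription. The proteins BMAL1, encoded by Arntl, and CLOCK bind as a pair to E-boxes and switch on the Per and Cry genes, whose products return to the nucleus and repress that pair, and CRY1 is a strong repressor of the loop. A further loop runs through the nuclear receptors ROR and REV-ERB, which act on ROR response elements of Arntl and Cry1. In mouse liver, the mRNAs of Arntl and of the Per genes are known to cycle daily at nearly opposite phases. The role of PER3 in the loop is less strict than that of its relatives PER1 and PER2.

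The promoter windows are shown to give the sequence at the start of each gene. Each runs 5′ to 3′ on the gene's strand, from 250 bases before to 50 after a transcript start of RefSeq in build GRCm38.p6. That reference is of C57BL/6J and not of Balb/c mice. Capitals mark the matches to 3 motifs and 1 variant, searched on both strands: the E-box CACGTG, its variant CACGTT (the E'-box), the D-box TTATGTAA, and the ROR response element. All 3 genes matched RefSeq by gene ID, with 4 windows, and the earlier of the 2 overlapping Arntl windows held no match and is not printed.
Arntl, chr7:113207261-113207560, plus strand: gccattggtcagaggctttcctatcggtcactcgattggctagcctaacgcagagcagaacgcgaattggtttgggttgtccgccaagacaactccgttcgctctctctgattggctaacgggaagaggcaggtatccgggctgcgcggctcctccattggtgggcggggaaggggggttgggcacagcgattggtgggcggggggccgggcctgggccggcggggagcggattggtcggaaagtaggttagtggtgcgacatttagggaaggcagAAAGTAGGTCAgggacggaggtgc
Cry1, chr10:85185005-85185304, minus strand: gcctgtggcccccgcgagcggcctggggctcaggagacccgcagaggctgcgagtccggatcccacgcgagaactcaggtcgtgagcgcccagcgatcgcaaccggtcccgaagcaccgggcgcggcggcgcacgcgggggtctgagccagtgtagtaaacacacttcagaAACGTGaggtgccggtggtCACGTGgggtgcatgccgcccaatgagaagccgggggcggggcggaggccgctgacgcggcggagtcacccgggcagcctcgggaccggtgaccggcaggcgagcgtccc
Per3, chr4:151044616-151044915, minus strand: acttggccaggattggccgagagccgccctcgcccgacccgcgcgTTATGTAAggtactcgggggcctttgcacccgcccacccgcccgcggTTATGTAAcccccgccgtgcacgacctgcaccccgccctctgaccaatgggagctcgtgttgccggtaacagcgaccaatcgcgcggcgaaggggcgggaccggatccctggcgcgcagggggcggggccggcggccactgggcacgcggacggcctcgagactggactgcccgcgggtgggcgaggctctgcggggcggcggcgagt
The Arntl window held an ROR response element, AAAGTAGGTCA, that began 27 bases after the start. Of 32851 windows of the same length over 27025 genes, 0.384% held this element, and 16.3% held its core AGGTCA. The Cry1 window held the E-box CACGTG 60 bases before the start, an element of 7.15% of windows. It also held AACGTG 79 bases before the start, which is the E'-box read on the other strand and was found in 4.68% of windows. The Per3 window held the D-box TTATGTAA at 205 and again at 158 bases before the start. The D-box was found in 0.938% of windows and at least 2 copies in 0.0213%, or 7 windows. No E-box or E'-box was found in the Per3 window and no ROR response element in the Cry1 window. These matches describe letters and are not measurements of binding.

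Arntl and Cry1 rose between 4 and 12 hours after PHx and fell between 36 and 72 hours, when Cry1 was below sham. Per3 was lower than sham at every time by limma, though not by the methods' t-test at 36 and 72 hours. Over the time course all 3 genes changed by limma's F test over the 4 comparisons with sham, with a share of variance explained by the group means (R-squared) of 0.6 or more. R-squared was 0.90 for Arntl (limma adjusted p = 8.61e-10), 0.93 for Cry1 (limma adjusted p = 2.83e-11) and 0.73 for Per3 (limma adjusted p = 1.50e-05). By the same criteria 32.2% of all probes changed, and 88.4% of the 1257 named mRNA probes of S1 Table. The 3 calls thus say little beyond the study's choice of probes. The shape and size of each gene's change are given next.

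**Figure D1:**
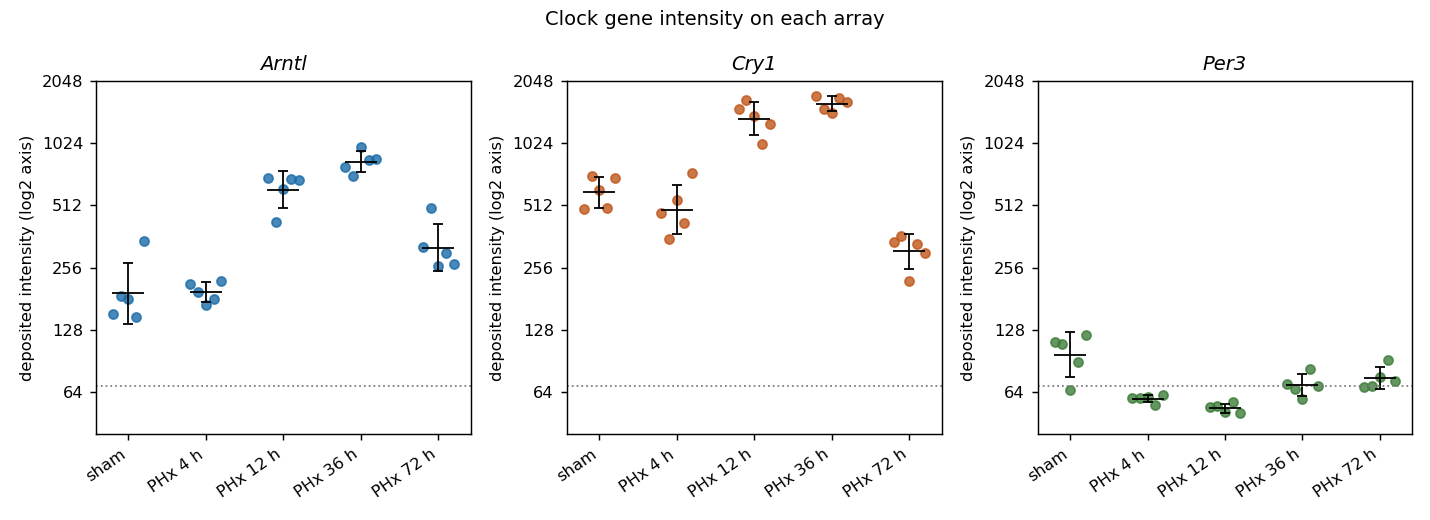
Deposited intensity (log2 axis) of the Arntl, Cry1 and Per3 probes on each of the 25 arrays, by group. Points are arrays, the long bar is the mean of log2 values, whiskers are 1 SD (n = 5), and the dotted line is the level below which the dimmest 30% of probes lie. Arntl and Cry1 were highest at 12 and 36 hours, and Per3 lay below the dotted line on all arrays at 4 and 12 hours.

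Arntl encodes the activator BMAL1. Its intensity, on the deposited linear scale, was 153.45, 185.5, 180.15, 147.65 and 344.95 on the 5 sham arrays. At 4 hours after PHx it was 212.2, 194.2, 168.4, 180.1 and 220.1. These groups overlapped, although the last sham array lay well above the other 4. At 12 hours the intensities were 696.85, 426.05, 611.6, 684.65 and 678.8. At 36 hours they were 783.95, 714.2, 986.05, 848.85 and 856.95, all above every array of the other 4 groups. At 72 hours they were 320.65, 496.65, 260.65, 300.7 and 267.65, all below the 36 hour arrays and above the 4 hour arrays, with the highest sham array inside their range. Over the 5 arrays of each group the log2 mean and its SD were 7.59 ± 0.49 for sham, 7.60 ± 0.16 for 4 hours, 9.25 ± 0.30 for 12 hours, 9.70 ± 0.17 for 36 hours and 8.32 ± 0.38 for 72 hours.

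Arntl showed no detectable difference from sham at 4 hours, at 0.01 in log2 (95% interval -0.38 to 0.41, limma adjusted p = 0.979). It was 3.18-fold higher than sham at 12 hours, or 1.67 in log2 (SE 0.19, limma adjusted p = 2.34e-07). At 36 hours it was 4.34-fold higher, or 2.12 in log2 (limma adjusted p = 5.78e-09). In both comparisons no PHx array overlapped a sham array, a separation upwards that 10.4% of all probes showed at 12 hours and 10.3% at 36 hours. Of all probes, 16.3% were called higher at 12 hours and 13.6% at 36 hours, and 1.11% and 0.714% changed by at least the size of Arntl in either direction. At 72 hours Arntl was still 1.66-fold above sham, or 0.74 in log2 (limma adjusted p = 0.00479), while 15.1% of all probes were called higher. By the methods' t-test on the same arrays this last difference did not pass (adjusted p = 0.10).

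Cry1 encodes a repressor of BMAL1 and CLOCK. Its intensity was 494.45, 709.95, 606.8, 497.7 and 691.2 on the sham arrays. At 4 hours after PHx it was 468.65, 353.4, 545.25, 420.05 and 731.05, a range that held all sham values. At 12 hours the intensities were 1506.1, 1659.45, 1380.1, 1014.65 and 1268.35. At 36 hours they were 1731.7, 1493.15, 1438.65, 1702.9 and 1624.9. These 2 groups overlapped each other, and both lay above all arrays of the other groups. At 72 hours they were 338.75, 362.9, 220.75, 331.8 and 301.7, all below the sham arrays, with the lowest 4 hour array inside their range. Over the 5 arrays of each group the log2 mean and its SD were 9.21 ± 0.25 for sham, 8.93 ± 0.40 for 4 hours, 10.40 ± 0.27 for 12 hours, 10.64 ± 0.12 for 36 hours and 8.26 ± 0.28 for 72 hours.

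At 4 hours the Cry1 difference from sham, -0.28 on the log2 scale, did not pass (95% interval -0.62 to 0.06, limma adjusted p = 0.339). Cry1 was 2.27-fold higher than sham at 12 hours, or 1.18 in log2 (SE 0.17, limma adjusted p = 3.74e-06). The rise at 36 hours was 2.69-fold, or 1.43 in log2 (limma adjusted p = 2.88e-07). Neither PHx group overlapped the sham arrays, as upwards for 10.4% of all probes at 12 hours and 10.3% at 36 hours. Of all probes, 16.3% and 13.6% were called higher, and 3.07% and 1.85% changed by at least the size of Cry1 in either direction. At 72 hours the direction was the opposite. The sham livers, labelled as taken at 4 hours, had 1.93-fold more signal than the 72 hour PHx livers. The PHx livers thus differed by -0.95 in log2 (limma adjusted p = 8.02e-05). The groups did not overlap, as was the case downwards for 8.64% of all probes. Of all probes, 13.1% were called lower at 72 hours, and among the named mRNA probes 48.9% were. A change of at least this size in either direction was found for 4.39% of all probes.

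Per3 encodes a PERIOD protein. Its intensity was 111.5, 108.95, 65.35, 89.35 and 121.05 on the sham arrays. At 4 hours after PHx it was 59.65, 59.5, 60.2, 55.6 and 61.8, below every sham array. At 12 hours it was 54.05, 54.6, 51.1, 57.15 and 50.6, again below all sham arrays and overlapping the 4 hour arrays. The intensities were 70.2, 65.85, 58.85, 82.6 and 68.65 at 36 hours. They were 67.9, 68.1, 75.45, 91.3 and 72.55 at 72 hours. Both of these groups overlapped the sham arrays. Over the 5 arrays of each group the log2 mean and its SD were 6.60 ± 0.36 for sham, 5.89 ± 0.056 for 4 hours, 5.74 ± 0.072 for 12 hours, 6.10 ± 0.18 for 36 hours and 6.22 ± 0.18 for 72 hours.

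Per3 was already lower at 4 hours, in the comparison with equal hours since surgery. The difference was -0.71 in log2 (SE 0.12, limma adjusted p = 2.32e-04). Of all probes 6.35% were called lower at that time, 4.96% had no overlap downwards, and 2.80% changed by at least this size in either direction. Among the named mRNA probes, 40.4% were called lower. The Per3 difference was -0.86 in log2 at 12 hours (limma adjusted p = 3.93e-06), where 15.1% of all probes were called lower and 9.79% had no overlap downwards. The difference stood at -0.50 after 36 hours (limma adjusted p = 0.00269), beside 12.5% of all probes called lower, and did not pass the methods' t-test (adjusted p = 0.0917). The smallest difference, -0.38, was that after 72 hours (limma adjusted p = 0.0194), beside 13.1% of all probes called lower. Changes of at least the size of Per3 in either direction were found for 6.36% of all probes at 12 hours, 14.2% at 36 hours and 20.9% at 72 hours. The Per3 call at 72 hours did not hold without sham replicate 1 (-0.33, limma adjusted p = 0.0584), 2 (-0.34, adjusted p = 0.0545) or 5 (-0.30, adjusted p = 0.0687), nor by the methods' t-test (adjusted p = 0.184).

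The Per3 probe was dim. It lay below the 30th percentile of its array on 15 of 25 arrays, whereas the Arntl and Cry1 probes did so on 0. On the sham arrays Per3 lay between the 26.5 and 55.2 percentile of all probes, at 4 hours between 9.39 and 20.5, and at 12 hours between 2.29 and 13.9. The deposited values had not been brought to 0 at background, and the lowest probe of an array read 37.75 to 43.6. The size of the Per3 changes therefore depended on how this background was treated. For 12 hours the log2 fold change was -1.44 after a normexp correction with an offset of 16 and -0.51 with 50 added to each value, and both passed. For 4 hours these values were -1.17 and -0.44.

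**Figure D2:**
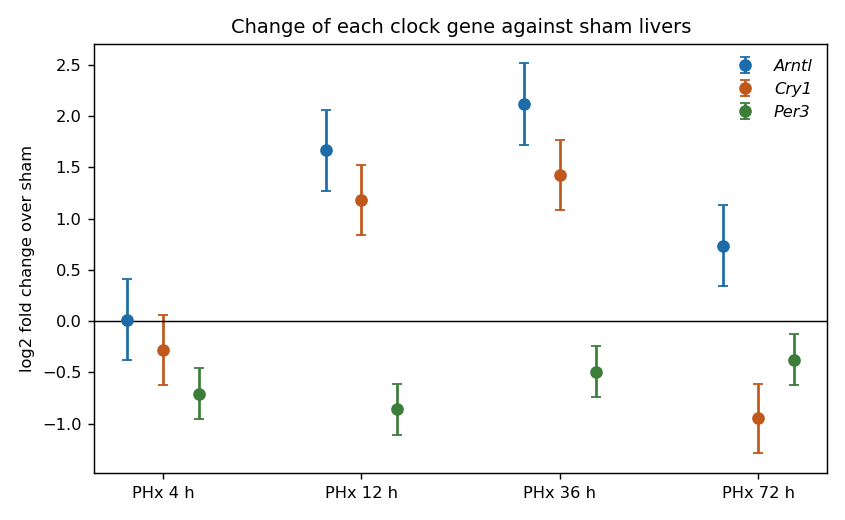
Log2 fold change of Arntl, Cry1 and Per3 over sham at each of the 4 times after PHx, with 95% intervals from limma (5 arrays per group). Arntl and Cry1 were near 0 at 4 hours and highest at 36 hours, Cry1 alone of the 3 crossed from above to below sham at 72 hours, and Per3 was below 0 throughout. All 4 comparisons share the 5 sham arrays.

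The levels after PHx were also compared with each other, in differences that take no value from the sham arrays. Between 4 and 12 hours Arntl rose 3.14-fold (log2 difference 1.65, limma adjusted p = 2.41e-07). Cry1 rose 2.76-fold over that interval (log2 difference 1.46, limma adjusted p = 1.54e-07). The groups did not overlap for either gene, as upwards for 10.2% of all probes, and 14% of all probes and 16.2% of named mRNA probes were called higher. For Per3 this difference was -0.15 and did not pass (95% interval -0.40 to 0.10, limma adjusted p = 0.439).

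The arrays at 12 and 36 hours lie 24 hours apart. They would share an hour of day if surgery was begun at the same hour. The other pairs of times after PHx would then not share one. What part the hour of day had in their differences was not tested. Between 12 and 36 hours Arntl differed by 0.45 on the log2 scale (95% interval 0.05 to 0.85). This difference did not pass (limma adjusted p = 0.0839), although the groups did not overlap. Such a separation upwards was found for 10.1% of all probes. Without sham replicate 5, which enters through the shared spread, the same difference passed (limma adjusted p = 0.0260), as it did in a fit of the 12 and 36 hour arrays alone (limma adjusted p = 0.0339). Cry1 differed by 0.24 (95% interval -0.10 to 0.58, limma adjusted p = 0.319), with overlapping groups. Per3 was higher at 36 than at 12 hours by 0.36 (limma adjusted p = 0.023), with no overlap. Leaving out PHx 12 h replicate 3 or 5 or PHx 36 h replicate 4 ended this call, with differences of 0.35, 0.34 and 0.30. The share of all probes called higher at this step was 14.4%, and that of named mRNA probes was 48.1%.

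From 36 to 72 hours Cry1 had the largest change of the 3. It fell 5.20-fold, a log2 difference of -2.38 (SE 0.17, limma adjusted p = 7.11e-10), and 0.0278% of all probes changed by at least this size between these times. Arntl fell 2.61-fold, a log2 difference of -1.38 (limma adjusted p = 2.00e-05), a size that 0.403% of all probes reached. For both genes the groups did not overlap, as downwards for 3.91% of all probes. Of all probes 4.54% were called lower at this step, and of named mRNA probes 26%. Per3 differed by 0.12, which did not pass (95% interval -0.13 to 0.37, limma adjusted p = 0.677).

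Between the first and the last time after PHx, the 3 genes ended at different places. At 72 hours Arntl was 1.65-fold above its level at 4 hours (log2 difference 0.72, limma adjusted p = 0.00573), beside 14.4% of all probes and 41.7% of named mRNA probes called higher. Its groups did not overlap, as upwards for 11.7% of all probes. Cry1 at 72 hours was below its 4 hour level by a log2 difference of -0.67 (limma adjusted p = 0.00298), beside 12.2% of all probes and 22% of named mRNA probes called lower. The 2 groups overlapped and the methods' t-test gave an adjusted p of 0.0557. Per3 was higher by 0.33 with a limma adjusted p of 0.0435. That call ended when any of the 5 arrays at 4 hours, PHx 36 h replicate 5, or PHx 72 h replicate 3, 4 or 5 was left out, with values from 0.26 to 0.35.

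From lowest to highest, Arntl ran from sham and 4 hours through 72 hours and 12 hours to 36 hours, and of these neighbours sham and 4 hours overlapped and did not pass, while 12 and 36 hours did not overlap and did not pass after adjustment. Cry1 ran from 72 hours through 4 hours and sham to 12 and 36 hours. There 4 hours and sham did not differ beyond their spread, nor did 12 and 36 hours. Per3 ran from 12 hours through 4, 36 and 72 hours to sham, and only the last neighbours, 72 hours and sham, passed the test.

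Arntl and Cry1 shared the rise from 4 to 12 hours and the fall from 36 to 72 hours. These 2 comparisons use no array in common. With surgery begun at the same hour, each would compare arrays from different hours of day. Of the 1170 named genes, 194 rose in the first (16.6%) and 301 fell in the second (25.7%). Both applied to 96 genes, which is 49.5% of those that rose and 31.9% of those that fell. These 96 are 8.21% of the named genes and include Arntl and Cry1.

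Within groups, the 3 genes did not vary together detectably. For each pair, deviations from the group means were correlated over the 25 arrays and compared with 100000 two-sided permutations within groups. For Arntl and Cry1 Pearson's r was 0.28 (permutation p = 0.201) and Spearman's rho 0.29 (permutation p = 0.191). Without the 2 arrays farthest from the median of Arntl, r was 0.12 (permutation p = 0.585). For Arntl and Per3 r was 0.13 (permutation p = 0.694), rho was -0.0077 (permutation p = 0.976) and r without 2 arrays was -0.047 (permutation p = 0.805). For Cry1 and Per3 r was 0.13 (permutation p = 0.538), rho was 0.25 (permutation p = 0.254) and r without 2 arrays was 0.14 (permutation p = 0.616). The tests were run for these 3 pairs alone. Of all probes, set beside Arntl in the same way with no test, 20.7% had a correlation with Arntl of at least the size of Cry1's.

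Across all 25 arrays, group differences included, the log2 values of Arntl and Cry1 had a Pearson correlation of 0.74, and 1.44% of all probes were at least as like Arntl as Cry1 was. The correlation with Per3 was -0.33 for Arntl and -0.29 for Cry1. These values, and those for other genes below, describe profiles over 5 groups of arrays and carry no test, as arrays of a group share their condition.

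**Figure D3:**
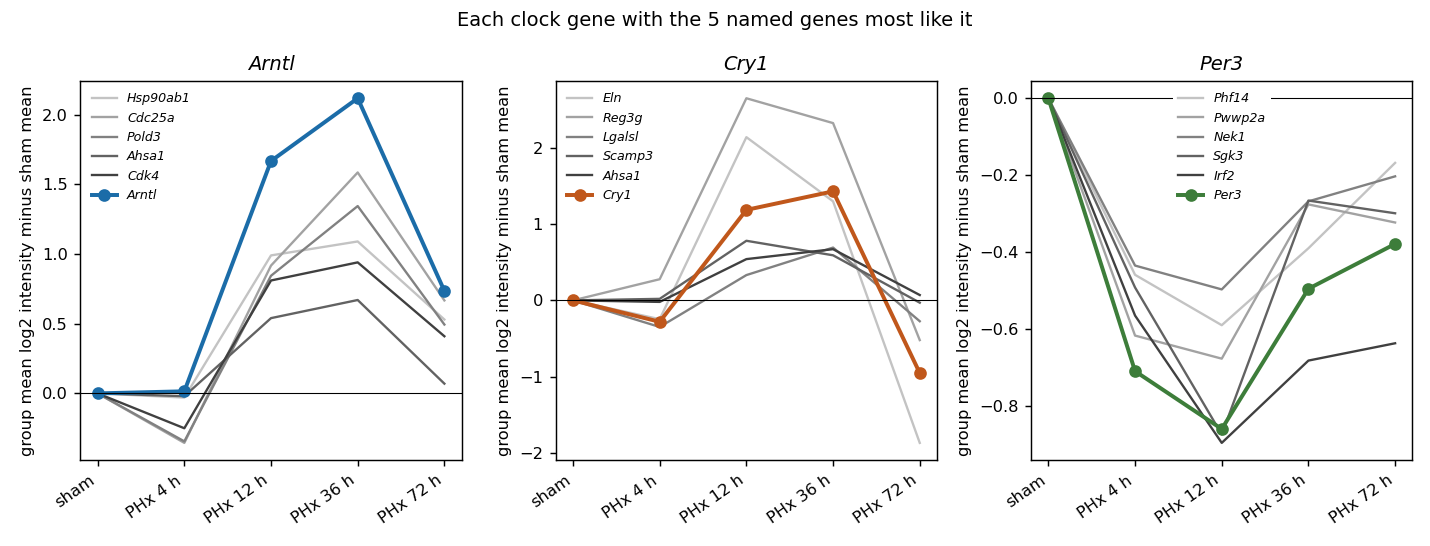
Group mean log2 intensity minus the sham mean for Arntl, Cry1 and Per3 (coloured, with markers) and for the 5 named mRNA genes whose log2 values correlated best with each over 25 arrays (grey). Each point is a mean of 5 arrays. The genes most like Arntl and Cry1 peaked at 12 or 36 hours, and those most like Per3 were lowest at 12 hours.

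The named genes most like Arntl were the chaperone gene Hsp90ab1 (r = 0.91), Cdc25a, a phosphatase that activates cyclin-dependent kinases (r = 0.89), the DNA polymerase subunit gene Pold3 (r = 0.88), Ahsa1, a co-chaperone of HSP90 (r = 0.88), and the G1 kinase gene Cdk4 (r = 0.86). Hsp90ab1 ran from a log2 level of 13.98 in sham livers and 13.95 at 4 hours to 15.07 at 36 hours and 14.51 at 72 hours. The genes most opposite to Arntl were the folliculin gene Flcn (r = -0.92), Acad10 of the acyl-CoA dehydrogenase family (r = -0.88) and the collagen gene Col14a1 (r = -0.87). Flcn was at 9.93 in sham livers and at 8.21 at 36 hours.

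Cry1 was most like the elastin gene Eln (r = 0.90), the antimicrobial lectin gene Reg3g (r = 0.90), Lgalsl (listed as 1110067D22Rik, r = 0.89), the secretory carrier gene Scamp3 (r = 0.86) and again Ahsa1 (r = 0.85). Eln, too, had its lowest mean at 72 hours, with log2 means of 9.91 in sham livers, 12.05 at 12 hours, 11.21 at 36 hours and 8.05 at 72 hours. The most opposite were 1810013L24Rik (r = -0.86), the F-box gene Fbxo21 (r = -0.76) and the G protein signalling regulator Rgs4 (r = -0.76). The log2 mean of Fbxo21 was 9.08 in sham livers, 7.98 at 12 hours and 10.08 at 72 hours.

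Per3 was most like the PHD finger gene Phf14 (r = 0.90), Pwwp2a (listed as 4631424J17Rik, r = 0.85), the kinase genes Nek1 (r = 0.84) and Sgk3 (r = 0.82), and the transcription factor gene Irf2 (r = 0.82). Phf14, at 8.84 in sham livers, was at 8.38 at 4 hours, 8.25 at 12 hours and 8.67 at 72 hours. The most opposite were Tmc4 (r = -0.69), the antimicrobial lectin gene Reg3b (listed as Pap, r = -0.66) and Desi2 (listed as 5830417C01Rik, r = -0.64).

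Of 17 other genes of the core loops, among them Clock, Per1, Per2, Cry2, Nr1d1, Nr1d2, Rora and Dbp, 0 had a named probe in the rows at hand, and these genes are not analysed here. Of 32 genes whose products modify clock proteins or act with them, 10 had named probes, 13 in all. Against sham, 0 of these probes were higher and 5 lower at 4 hours, 1 higher and 6 lower at 12 hours, 4 higher and 6 lower at 36 hours, and 3 higher and 8 lower at 72 hours. In that order of times their median log2 fold changes were -0.21, -0.32, -0.35 and -0.61, where the medians of all named mRNA probes were -0.26, -0.32, -0.26 and -0.25 and those of all probes were within 0.01 of 0. Of all probes, 6.35%, 15.1%, 12.5% and 13.1% were called lower at 4, 12, 36 and 72 hours, and 16.3%, 13.6% and 15.1% higher at 12, 36 and 72 hours. Over all named mRNA probes, the shares called higher and lower were 1.67% and 40.4% for 4 hours, 10.3% and 50.4% for 12 hours, 42% and 47.3% for 36 hours, and 37.7% and 48.9% for 72 hours. The modulator probes, too, entered S1 Table because the study found them changed.

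Of the 10 genes, 6 were lower than sham at some times and higher at none. Gsk3b, a kinase that phosphorylates several clock proteins, differed by -1.10 in log2 at 12 hours (limma adjusted p = 2.50e-07), -0.91 at 36 hours and -0.96 at 72 hours. All 3 probes of the deacetylase gene Sirt1 were lower at 12, 36 and 72 hours, with log2 fold changes from -0.97 to -0.45. They disagreed at 4 hours, where IVGNm20957 was lower (-0.65, limma adjusted p = 4.93e-05). IVGNm22456 (-0.15, limma adjusted p = 0.433) and IVGNm24297 (-0.095, limma adjusted p = 0.638) did not pass. The ubiquitin ligase gene Ube3a was lower at 4, 12 and 72 hours, with -0.51, -0.68 and -0.78. For the PER kinase gene Csnk1a1 the 2 probes disagreed. IVGNm13155 was lower at all 4 times, from -1.14 at 4 hours to -1.64 at 36 hours, whereas IVGNm13645 was lower at 4 hours only (-0.33, limma adjusted p = 0.00274). Crem, a factor of cAMP signalling, was lower at 36 and 72 hours, with -0.35 and -0.61.

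The other 4 genes, Nono, Timeless, Tipin and Ezh2, were higher at some times. The RNA-binding protein genes Nono and Sfpq, whose products bind PER complexes, were not called alike. Nono was lower at 4 hours (-0.23) and higher at 12 hours (0.46), 36 hours (0.58) and 72 hours (0.22), and Sfpq was lower at 72 hours (-0.65). Timeless was higher at 36 hours alone, by 1.52 (limma adjusted p = 1.99e-10). Tipin, whose product pairs with TIMELESS at replication forks, was higher by 1.67 at 36 hours and by 0.43 at 72 hours. The histone methyltransferase gene Ezh2 was higher by 1.62 at 36 hours and by 0.69 at 72 hours. Timeless, Tipin and Ezh2 are also known for roles in DNA replication or proliferation, and none of the 3 passed at 4 or 12 hours. Cdc25a, Pold3 and Cdk4, named above among the genes most like Arntl, had log2 means of 7.663, 8.395 and 12.04 in sham livers. Their means at 12 hours were 8.58, 9.239 and 12.85, but these genes were picked for a profile like that of Arntl. At 12 hours Arntl was 1.67 above sham and Cry1 1.18, and what part proliferation had in these values was not tested.

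**Figure D4:**
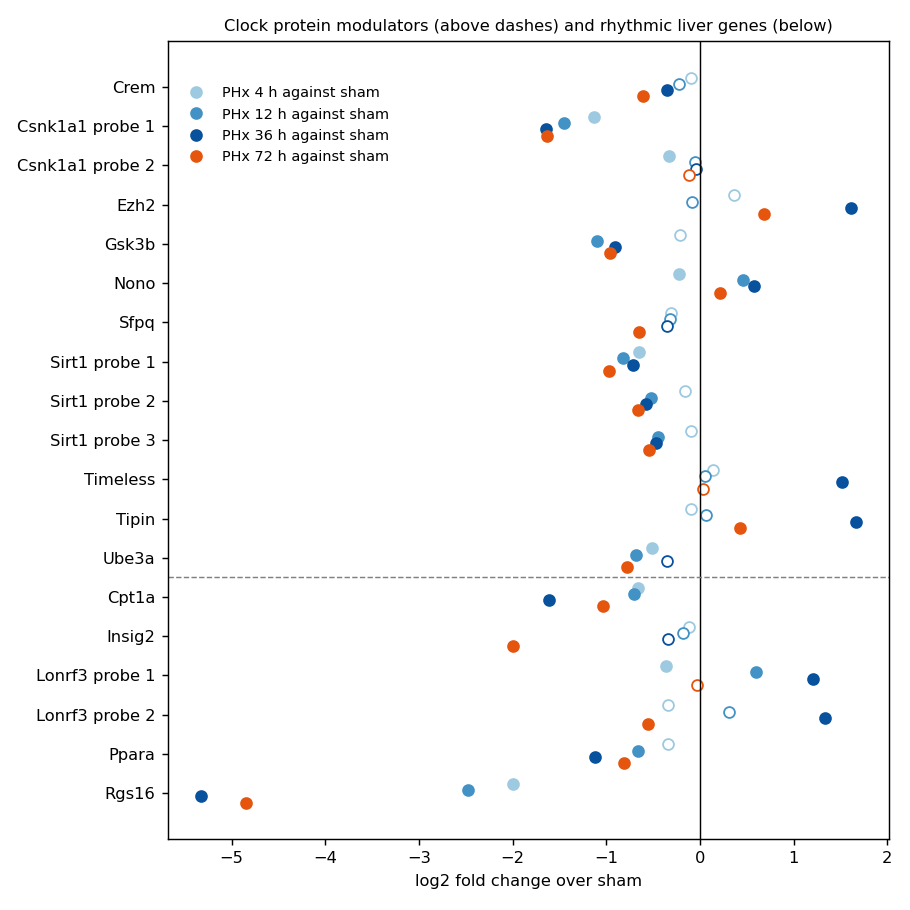
Log2 fold change over sham of each named probe of the clock protein modulators (above the dashed line) and of the rhythmic liver genes (below it) at each of the 4 times after PHx. Filled points passed at an adjusted p under 0.05 from limma and open points did not (5 arrays per group). At 72 hours 8 of 13 modulator probes were lower than sham, Timeless, Tipin and Ezh2 were higher at 36 hours, and Rgs16 was lowest of all.

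Of 21 genes known for daily rhythms in mouse liver, 5 had named probes, 6 in all. Against sham 0 were higher and 3 lower at 4 hours, 1 higher and 3 lower at 12 hours, 2 higher and 3 lower at 36 hours, and 0 higher and 5 lower at 72 hours. Their median log2 fold changes in that order of times were -0.354, -0.421, -0.733 and -0.922. Of all probes 6.35%, 15.1%, 12.5% and 13.1% were called lower at these times, and of named mRNA probes 40.4%, 50.4%, 47.3% and 48.9%. The shares of named mRNA probes called higher were 1.67%, 10.3%, 42% and 37.7%. Rgs16, a regulator of G protein signalling, changed most, with log2 fold changes of -2.001 (limma adjusted p = 4.11e-04), -2.47, -5.33 and -4.85 at the 4 times. Insig2, which holds back sterol synthesis, passed at 72 hours alone, with -1.99 (limma adjusted p = 1.40e-06). The fatty acid oxidation genes Cpt1a and Ppara were lowest at 36 hours, with -1.61 and -1.12. Both probes of Lonrf3, a gene with a LON domain and a RING finger, were higher at 36 hours, by 1.21 and 1.33. Of these 2 probes, 1 passed at 12 hours (0.59) and the other did not (0.31, limma adjusted p = 0.0968). Against sham, IVGNm24502 was lower at 4 hours (-0.36, limma adjusted p = 0.0316) and IVGNm29932 did not pass there (-0.34, limma adjusted p = 0.124). At 72 hours IVGNm29932 was lower (-0.55, limma adjusted p = 0.00384) and IVGNm24502 did not pass (-0.03, limma adjusted p = 0.86). Both Lonrf3 probes were lower at 72 than at 36 hours, with log2 differences of -1.25 and -1.89.

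The labelled tissue was checked with markers. The hepatocyte gene F2, for prothrombin, had a log2 mean of 15.92 in sham livers. A marker counted only with a named probe in S1 Table, whose probes the study listed because they changed on these arrays. The counts of markers called lower are therefore not independent of that listing. Of 9 hepatocyte markers, 5 had named probes (Crp, Cyp2c50, F2, F9 and Lbp), and 5, 2, 5 and 5 of them were lower than sham at 4, 12, 36 and 72 hours. Of all probes 6.35%, 15.1%, 12.5% and 13.1% were called lower at these times, and of named mRNA probes 40.4%, 50.4%, 47.3% and 48.9%. On the sham arrays the summed linear intensity of the 5 hepatocyte probes was 183908 to 217084. At the 4 times it was 111396 to 152294, 121397 to 143435, 112623 to 135894 and 107745 to 133902. All PHx arrays thus lay below all sham arrays in this sum, which the brightest probes dominate and which was not taken for all probes. At 12 hours Cyp2c50 (log2 fold change -1.65) and F9 (-1.29) passed, and Crp, F2 and Lbp did not. Sinusoidal endothelial cells, stellate cells and cholangiocytes each had 4 listed markers, of which 1 each had a named probe. Clec1b of sinusoidal endothelial cells was lower at all 4 times. Col14a1 of stellate cells was lower at 12, 36 and 72 hours, and Anxa4 of cholangiocytes at 12 and 36 hours. Of 5 markers of Kupffer cells and leukocytes, 0 had a named probe. In RNA of whole liver, fewer cells of a type and less RNA per cell cannot be told apart, and what part a change in cell make-up had in the values of Arntl, Cry1 and Per3 was not tested.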

How the data were processed

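RNA of 25 mouse livers was hybridised to the NCode Mouse Non-coding RNA Microarray, with 5 arrays per group as the titles give them. The authors deposited a table of linear intensities, 1 for each probe on each array. The methods name the vsn package, but the deposited intensities are neither on its scale nor reduced to 0 at background. Array medians were 97.7 to 102.7, and array pairs within a group correlated at r = 0.981 to 0.996. Nothing in the labels says how the 5 livers of a group were housed or operated, so p-values measure the spread between these samples, whose number limits the precision.

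Values were taken to log2, and 1 mean per group was fitted to 35979 probes over the 25 arrays by the lmFit and eBayes functions (limma 3.58.1, R 4.3.3). Another 2 probes had no value on any array and were dropped, and no filter on dim probes was set. P-values were adjusted by Benjamini-Hochberg over all probes within each comparison and called under 0.05, with R-squared of at least 0.6 for the time course. These thresholds are those the methods give for maSigPro, which was not used. The fit was tested on simulated data with known changes.

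The 3 genes and all gene lists were chosen with earlier results of these data known. The genes named are the 3 clock genes, every listed gene with a named mRNA probe, and per clock gene the 5 named genes with the highest and the 3 with the lowest Pearson correlation over 25 arrays, with the brightest probe for a gene. Names came from 1998 rows of S1 Table at hand, with 1943 distinct probes. Promoter windows were those of RefSeq, GRCm38.p6. Other tools were Python 3.11.15, pandas 2.3.3, numpy 2.4.6, scipy 1.17.1 and matplotlib 3.10.9. Alternatives covered normalization, background, a pseudocount of 50, the dimmest 30% of probes left out, the variance model, array weights, the groups fitted, the methods' t-test, a regression of degree 2 on hours, replicate numbers and each array left out.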

Additional observations from a re-analysis of the deposited data

Results flagged for a closer look

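Of 15 groups of 5 arrays (3 genes in 5 groups), 2 held an array far from the others, where chance marks about 1 group in 20. Both were groups of Arntl, and the gaps were taken on the log2 scale. Among the sham livers, replicate 5 was the highest at an intensity of 344.95, and its log2 gap to the nearest array took 0.731 of the group's range, above Dixon's critical value of 0.71. At 12 hours after PHx, replicate 2 was the lowest at 426.05, with a log2 gap of 0.735 of the range. On the linear scale, a check added after seeing the data, the ratios were 0.808 for sham replicate 5, 0.685 for PHx 12 h replicate 2, below the critical value, and 0.746 for PHx 72 h replicate 2 at 496.65, above it. With each array left out in turn, the log2 fold change of Arntl over sham at 12 hours ranged from 1.57 to 1.88 and passed each time.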

How the results depend on the processing

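No alternative turned the direction of a called difference of Arntl, Cry1 or Per3. Over the alternatives other than leaving out an array, 300 values kept their call, 7 lost it and 2 gained it. With median centring the Per3 difference between 72 and 4 hours was 0.31 (limma adjusted p = 0.0676), and with 50 added to each intensity it was 0.19 (limma adjusted p = 0.07), so it no longer passed. In fits of only the compared groups, Per3 at 72 hours against sham (-0.38, limma adjusted p = 0.0928) no longer passed and Arntl at 36 against 12 hours (0.45, limma adjusted p = 0.0339) did. The methods' t-test did not pass Arntl at 72 hours against sham (0.74), Cry1 at 72 against 4 hours (-0.67), or Per3 against sham at 36 hours (-0.50) and 72 hours (-0.38), and it passed Per3 at 12 against 4 hours (-0.15, adjusted p = 0.0318). Leaving out single arrays, 659 values kept their call, 15 lost it and 1 gained it. Calls changed in 4 comparisons, and over all arrays left out in turn, including those that kept the call, these ranged from -0.52 to -0.30 for Per3 at 72 hours against sham, 0.26 to 0.36 for Per3 at 72 against 4 hours, 0.30 to 0.42 for Per3 at 36 against 12 hours and 0.32 to 0.51 for Arntl at 36 against 12 hours. Counts of called probes stayed within 1.5 times in every alternative.

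Replicate numbers did not pair the arrays, since 50 same-numbered pairs had a median correlation of deviations of 0.0033 (range -0.35 to 0.46) and 6 of 25 arrays were closest to their own number. With the number as a replicate block, no call of the 3 genes changed, and 4343 probes were called at 4 hours. Low signal limits Per3 most, as its fall at 12 hours ranged from -1.44 to -0.51 with the background treatment.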
